A study of Mus musculus with 16 samples.

Results

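The genes Gad1, Gad2, Slc32a1, Dlx1, Dlx2, Dlx5, Dlx6, Lhx6 and Calb2, which make and load the transmitter GABA or set up and mark the neurons that use it, were taken by gene symbol from the deposited expression tables, and all 9 were found among the 22440 genes listed. They were read in 4 RNA-seq libraries of a series on DNA breaks and early-response genes, whose other 12 samples, of chromatin, were not analysed here. All 4 libraries came from primary cultures of dissociated cortex of Swiss-Webster mouse embryos at day 16. An untreated culture, titled as control, gave the library called the etoposide control here. The other libraries came from a culture given etoposide at 5 µM, from a further control that carries a number in its title (the NMDA control) and from a culture given NMDA. The control titles name no treatment, the labels give 50 µM NMDA for 10 min and 10 min of recovery for most experiments, and they give no length for etoposide, no sex of the embryos and no number of embryos per culture. Etoposide is a poison of type II topoisomerases, which then hold DNA breaks, and NMDA opens a class of glutamate receptor.

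GABA is the main inhibitory transmitter of the cortex. Gad1 and Gad2 encode the pair of glutamate decarboxylases that make it, and Slc32a1 encodes the vesicular transporter that loads it into synaptic vesicles. Cortical GABAergic neurons arise outside the cortex, in the ganglionic eminences of the ventral forebrain, and migrate in. There the homeodomain factors of the Dlx family switch on the GABAergic programme, and Lhx6, a LIM-homeodomain factor, acts in the lineage of the medial eminence, from which somatostatin and parvalbumin interneurons come. Calb2 encodes calretinin, a calcium-binding protein of another interneuron class and of Cajal-Retzius cells.

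The 4 Dlx members are printed first as sequence, because they are close paralogs and their reads could in principle be confused. The homeobox of each, the stretch of 180 bases that codes for the DNA-binding domain, was read from the GENCODE coding sequences of build NCBIM37, 5′ to 3′ on the gene's own strand, with capitals at the 74 positions where the 4 genes are not all alike.
Dlx1: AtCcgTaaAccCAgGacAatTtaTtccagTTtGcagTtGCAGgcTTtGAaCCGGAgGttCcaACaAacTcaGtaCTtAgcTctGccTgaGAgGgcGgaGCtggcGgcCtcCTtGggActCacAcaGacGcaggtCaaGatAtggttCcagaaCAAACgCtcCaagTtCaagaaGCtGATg
Dlx2: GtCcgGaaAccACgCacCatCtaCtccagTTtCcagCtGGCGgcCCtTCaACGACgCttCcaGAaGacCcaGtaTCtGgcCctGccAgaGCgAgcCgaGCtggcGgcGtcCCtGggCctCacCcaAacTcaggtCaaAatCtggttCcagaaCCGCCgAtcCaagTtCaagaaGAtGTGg
Dlx5: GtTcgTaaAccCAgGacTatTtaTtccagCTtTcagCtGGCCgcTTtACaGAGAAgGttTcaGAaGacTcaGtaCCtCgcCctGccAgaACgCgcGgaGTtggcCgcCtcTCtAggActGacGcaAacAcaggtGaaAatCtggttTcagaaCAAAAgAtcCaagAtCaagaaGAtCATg
Dlx6: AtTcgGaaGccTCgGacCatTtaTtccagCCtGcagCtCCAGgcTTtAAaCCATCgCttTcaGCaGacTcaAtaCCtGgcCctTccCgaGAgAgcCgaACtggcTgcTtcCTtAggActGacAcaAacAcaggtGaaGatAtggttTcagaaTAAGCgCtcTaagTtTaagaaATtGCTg
The other 106 positions are the same in all 4. Between any 2 of these genes 128 to 138 of the 180 bases were identical, and the longest stretch shared exactly between 2 whole coding sequences was 23 bases, between Dlx2 and Dlx6. For Gad1 and Gad2 it was 17 bases, over coding lengths of 1782 and 1758 bases. For the RNA-seq libraries the read length is not stated.

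The Dlx genes lie in 2 convergent pairs, with a noncoding gene running opposite to Dlx1 and another opposite to Dlx6. Dlx1 (chromosome 2, 71367502 to 71375948 in the tables' locus, mm9) and Dlx2 (chromosome 2, 71381465 to 71384811) form one pair, and Dlx6 (chromosome 6, 6770546 to 6819533) and Dlx5 (chromosome 6, 6827805 to 6832068) the other. Between the ends of the genes in the GENCODE annotation, which differ from the tables' loci, the gaps are 9.43 and 9.24 kb. The tables give Dlx1 the same locus as Dlx1as, and Dlx6 the same as Dlx6os1 and Dlx6as. In the annotation, 335 exon bases of Dlx1, 6.21% of its exon length, overlap Dlx1as on the opposite strand, and whether the counting told strands apart is not stated, so the split between Dlx1 and Dlx1as is uncertain. Exons of Dlx6 and Dlx6os1 do not overlap. Slc32a1 (chromosome 2, 158436494 to 158441483) shares 697 exon bases, 24.8% of its exon length, with Gm14205 on the opposite strand. Gm14205 is not among the genes listed, so the value of Slc32a1 carries a like doubt over a larger share of its length.

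**Figure D1:**
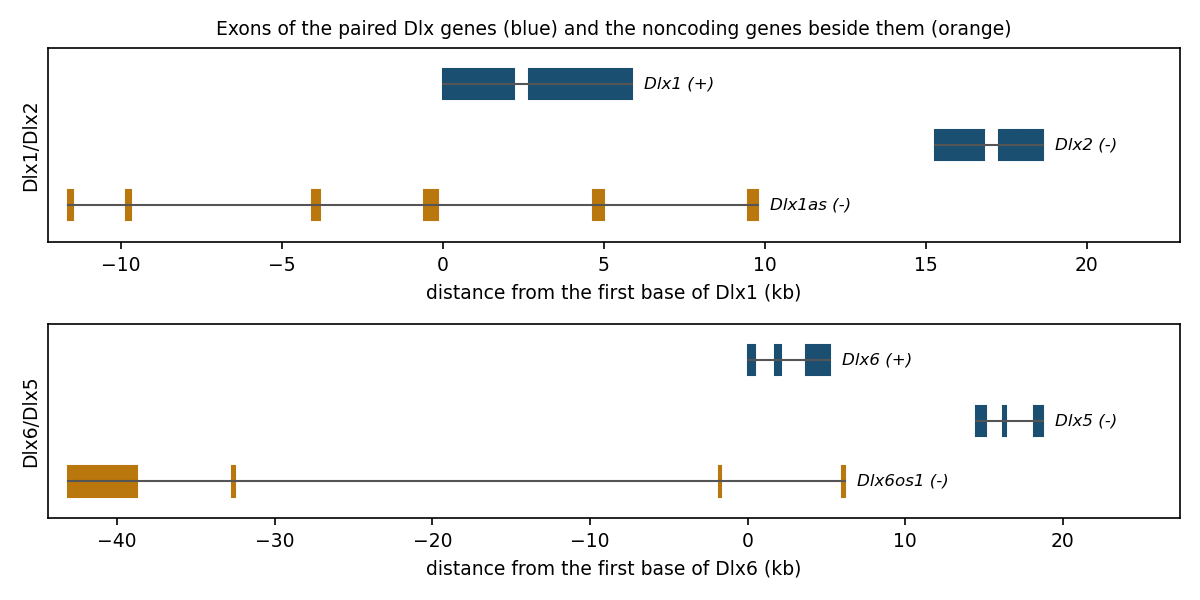
Exons (boxes) of the paired Dlx genes and of the noncoding genes Dlx1as and Dlx6os1 beside them, against the distance in kb from the first base of Dlx1 (top) or Dlx6 (bottom), from the GENCODE annotation of NCBIM37; the sign after a name is the strand. Exons of Dlx1 and Dlx1as overlap over 335 bases, while the Dlx6os1 exons lie on both sides of Dlx6 without touching its exons.

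The promoters of the enzyme genes are printed next, as sequence. They are the RefSeq windows of build GRCm38.p6 from 250 bases before to 50 bases after the gene start, on the plus strand of chr2:70561879-70562178 for Gad1 and chr2:22622077-22622376 for Gad2, and capitals mark the motif TATAAA or its reverse complement, searched on both strands.
Gad1: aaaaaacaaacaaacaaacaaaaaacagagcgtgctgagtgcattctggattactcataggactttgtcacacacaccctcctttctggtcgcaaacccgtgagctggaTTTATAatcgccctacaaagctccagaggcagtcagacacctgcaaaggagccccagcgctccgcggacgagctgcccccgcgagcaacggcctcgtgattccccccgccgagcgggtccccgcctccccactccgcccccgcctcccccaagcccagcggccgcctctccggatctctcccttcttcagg
Gad2: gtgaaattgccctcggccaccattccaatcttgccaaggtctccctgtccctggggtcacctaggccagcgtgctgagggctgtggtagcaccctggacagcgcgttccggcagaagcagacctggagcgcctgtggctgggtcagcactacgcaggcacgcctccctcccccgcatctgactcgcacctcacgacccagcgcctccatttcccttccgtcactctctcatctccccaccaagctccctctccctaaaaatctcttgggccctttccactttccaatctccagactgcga
The Gad1 window holds 1 match, as the reverse complement and 141 bases before the start, and the Gad2 window none. Of all 32851 windows of this length, 13.6% hold at least 1, and a window of Lhx6 holds 1 too. Whether these sequences bear on the levels described below was not tested. The homeodomain core TAATTA, which reads the same on both strands, was in none of the 8 windows found for 6 of the members (Gad1, Gad2, Slc32a1, Dlx1, Dlx2 and 3 windows of Lhx6), and in 5.29% of all windows.

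Values are FPKM (fragments per kilobase of transcript, scaled by library size). The steps between low values put that total near 14.0, 11.8, 20.0 and 17.9 M fragments in the etoposide control, etoposide, NMDA control and NMDA libraries, in which 10459, 9836, 12886 and 12775 genes stood at FPKM of at least 1. With 1 library in every group, replicate spread could not be measured and p-values are left out. The exact 95% intervals rest on approximate fragment numbers and hold counting error alone. The levels of all genes differed between the controls on the deposited scale, with a median log2 fold of 1.32 (a ratio of 2.50), so levels set across the pairs are also given relative to that median. Pan-neuronal markers were high in every library, with Tubb3, a neuronal tubulin, at 209, 101, 606 and 653 FPKM in the same order. Snap25, a synaptic fusion protein, stood at 119, 74.1, 191 and 195. These genes mark neurons and do not show from which region they came.

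All 3 genes of GABA synthesis and loading were measured well above the counting floor in each library. Gad1 (chromosome 2, 70327997 to 70440069, a locus the tables share with 2 further genes whose exons do not overlap it) stood at 32.4 FPKM in the etoposide control, 20.1 with etoposide, then 47.5 for the NMDA control and 52.3 with NMDA. It was the highest of the 9 members in every library, although with NMDA and in the NMDA control Calb2 came close. Gad2 (chromosome 2, 22477847 to 22549397) stood at 8.16, 6.04, 8.05 and 8.54 FPKM in the same order, a range far narrower than that of Gad1. Slc32a1 stood at 8.12, 4.59, 17.2 and 20.1 FPKM. In the etoposide control its counting interval (7.25 to 9.06) overlapped that of Gad2 (7.53 to 8.81), so these neighbours in the order of levels did not differ there beyond counting error, whereas in the NMDA pair Slc32a1 was above Gad2.

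The Dlx factors were low in the etoposide pair and higher in the NMDA pair. Dlx1 stood at 2.05, 2.36, 12.2 and 10.5 FPKM and was the highest of the 4 in each library. Dlx2 stood at 1.06, 0.501, 3.98 and 4.35 FPKM, and its 0.501 rested on about 15 fragments. Dlx5 stood at 1.04, 0.720, 3.08 and 3.86 FPKM, from about 20, 12, 86 and 97 fragments. Dlx6 stood at 0.820, 0.993, 3.69 and 5.18 FPKM. Within the etoposide control the intervals of Dlx2, Dlx5 and Dlx6 overlapped (0.755 to 1.48, 0.622 to 1.57 and 0.523 to 1.19), so their order there was not resolved. The summed level of the 4 was 4.98 FPKM in the etoposide control, 4.58 with etoposide, then 22.9 for the NMDA control and 23.9 with NMDA.

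Lhx6 and Calb2 followed unlike courses. Lhx6 (chromosome 2, 35937473 to 35960928) stood at 4.22 FPKM in the etoposide control, 2.41 with etoposide, then 4.56 for the NMDA control and 5.35 with NMDA, so its level was near equal in the controls. Calb2 (chromosome 8, 112666438 to 112692106) stood at 9.49, 3.35, 44.0 and 43.4 FPKM, the widest range of the 9 members.

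**Figure D2:**
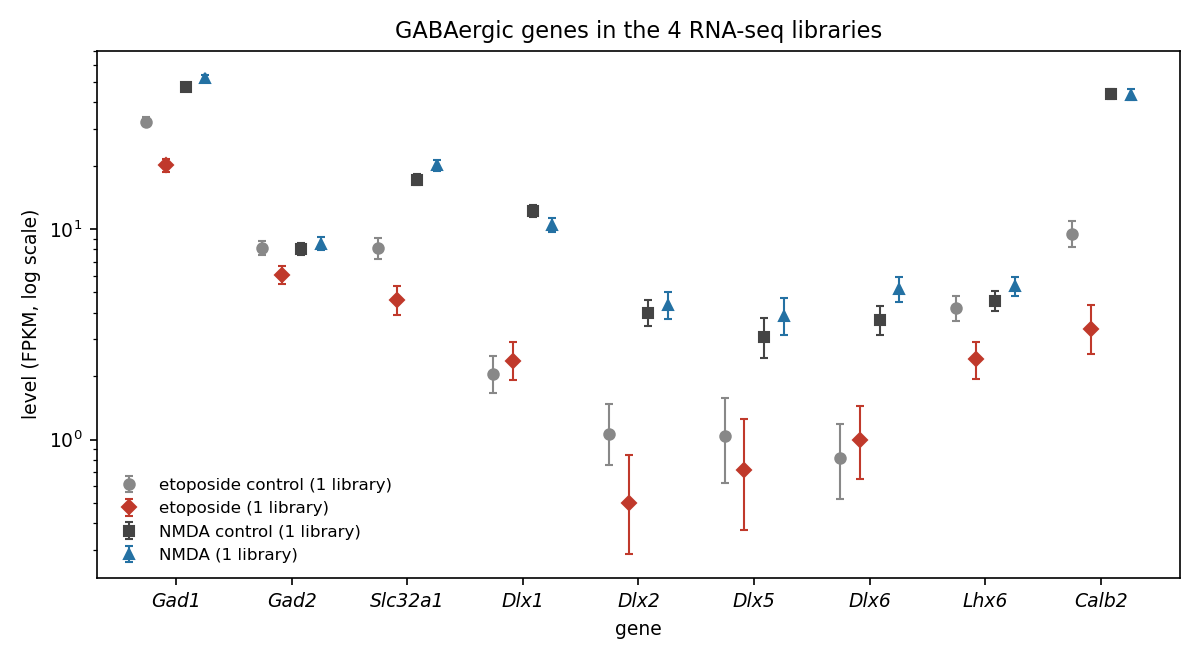
Level of each gene in FPKM (log scale) in the 4 libraries, 1 library per group; bars are 95% counting intervals from approximate fragment numbers. Gad2 and Lhx6 sit at similar levels in the controls (8.16 and 8.05, 4.22 and 4.56 FPKM), while Dlx1 and Calb2 are higher in the NMDA control (12.2 and 44.0 FPKM) than in the etoposide control (2.05 and 9.49 FPKM).

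With etoposide, set against its control to compare transcripts under a topoisomerase poison, the enzymes, the transporter, Lhx6 and Calb2 were lower than in the control on the deposited scale, and Calb2 differed most. Scaled to pan-neuronal markers, Calb2 was still lower (log2 fold -0.65), whereas Gad1 (-0.04), Slc32a1 (-0.08) and Lhx6 (0.01) were near 0 and Gad2 was higher (0.25). Calb2 went from 9.49 to 3.35 FPKM and was the single member among the 692 genes of the authors' deposited table, where it is 2.84-fold lower. Its counting interval, from about 190 and 57 fragments, was 2.10 to 3.88. Slc32a1 in the etoposide library was at 0.565 of its control (interval 0.463 to 0.688), Lhx6 at 0.571 (0.444 to 0.729), Gad1 at 0.619 (0.569 to 0.673) and Gad2 at 0.740 (0.652 to 0.840). These intervals lie below 1, but most genes were lower on the deposited scale, on which 76.7% of the 10681 genes compared were below 0 and the median log2 fold was -0.32. In whole cultures, fewer cells of a type and less RNA per cell cannot be told apart.

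The Dlx factors gave no single direction with etoposide. Dlx1 was at 1.15 of its control (interval 0.860 to 1.55) and Dlx6 at 1.21 (0.672 to 2.19), and both intervals include 1. Dlx5 was at 0.690 (0.307 to 1.48), which includes 1 as well. Dlx2 was at 0.471 (0.240 to 0.879), from about 37 and 15 fragments. The low fragment numbers of Dlx2, Dlx5 and Dlx6 limit what could be detected in this pair.

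Read on the log2 scale with a pseudocount of 1 FPKM, 8 of the 9 members reached an FPKM of 1 in one library of the pair or both and were compared, and Dlx6 did not. Of the 8, 1 was at least 2-fold lower (Calb2, log2 fold -1.27), where 7.36% of all genes compared were, and 0 at least 2-fold higher, where 0.477% were. Below 0 were 7 of the 8, a share near the 76.7% of all genes. The authors' deposited table lists 6.28% of the genes compared as lower and 0.0936% as higher. The median log2 fold of the 8 was -0.54, and -0.22 relative to the median of all genes. That relative median was -0.44 with no filter, and it turned to 0.12 against the other control after median scaling. Scaling to pan-neuronal markers gave a plain median of 0.09 for the 8, from which the median of all genes was not taken off. Relative to the median of all genes, the values were -0.95 for Calb2, -0.38 for Slc32a1, -0.34 for Gad1, -0.29 for Lhx6, -0.14 for Dlx2, -0.06 for Gad2, 0.07 for Dlx5 and 0.46 for Dlx1. None reached 2-fold on that scale, where 2.08% of genes were that much lower and 1.47% that much higher. Set against the NMDA control after median scaling, 5 of the 8 took the other sign, with log2 folds of 1.46 for Gad2, 0.91 for Lhx6, 0.78 for Gad1, 0.13 for Slc32a1 and -0.28 for Dlx1, while Calb2 remained lower at -1.57.

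NMDA, set against its own control to see what stimulation of the receptor does, gave small differences in these genes. Dlx6 went from 3.69 to 5.18 FPKM, a ratio of 1.41 (interval 1.14 to 1.74). Slc32a1 went from 17.2 to 20.1 FPKM (ratio 1.17, interval 1.07 to 1.28), Gad1 from 47.5 to 52.3 FPKM (1.10, 1.05 to 1.16) and Lhx6 from 4.56 to 5.35 FPKM (1.17, 1.00 to 1.37). Dlx1 went the other way, from 12.2 to 10.5 FPKM (0.860, 0.774 to 0.955). For Gad2 (1.06, 0.965 to 1.17), Dlx2 (1.09, 0.890 to 1.34), Dlx5 (1.25, 0.928 to 1.70) and Calb2 (0.988, 0.911 to 1.07) the interval includes 1.

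None of the 9 members reached 2-fold with NMDA, where 0.438% of the 13028 genes compared were that much higher and 0.729% that much lower, and none was in the authors' deposited table of 63 genes, which lists 0.192% of the genes compared as higher and 0.292% as lower. The median log2 fold of the 9 was 0.14, and 0.11 relative to all genes. Above 0 were 7 of the 9, where 57.2% of all genes were, and below it 2, where 42.8% were. On the log2 scale Dlx6 lay above 98.8% of the genes compared, at 0.40, and Dlx1 above 9.25%, at -0.20. Against the etoposide control after median scaling, Gad2 and Lhx6 were at least 2-fold lower instead (log2 folds of -1.42 and -1.09), and Gad1 was at -0.94, while Dlx1 and Calb2 took the other sign at 0.59 and 0.52.

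**Figure D3:**
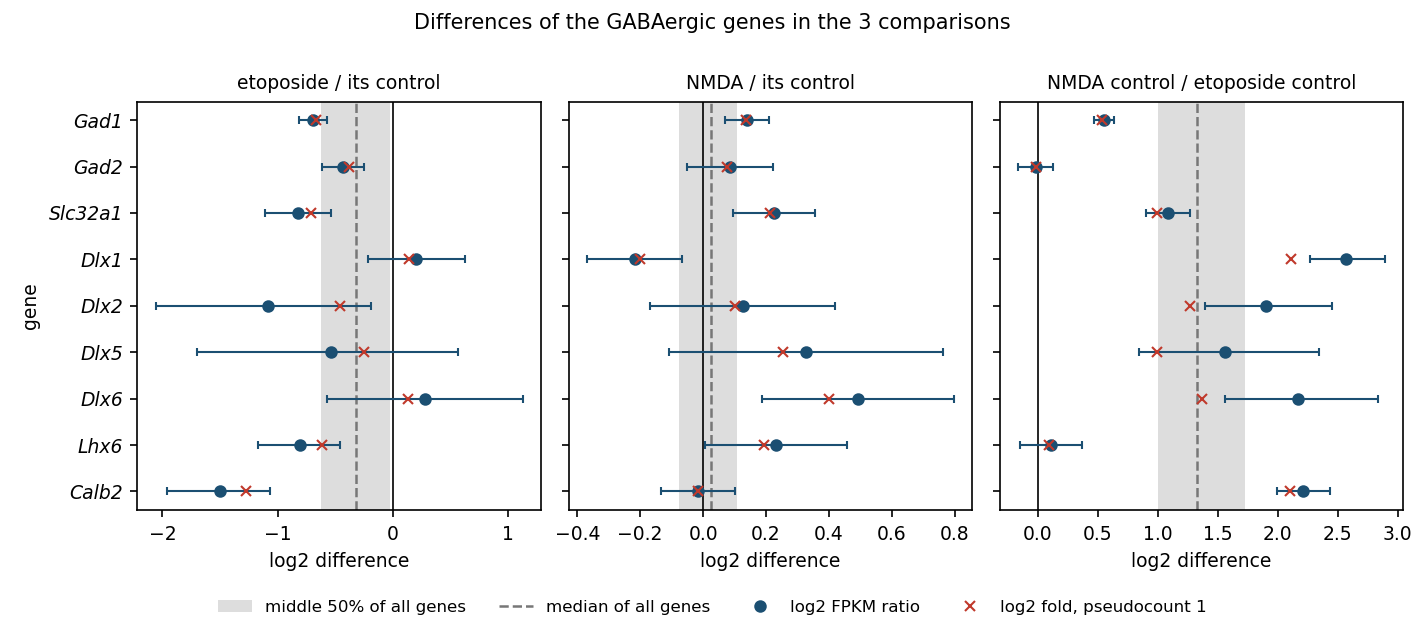
Log2 difference of each gene in the 3 comparisons, as the plain FPKM ratio (points, with 95% counting intervals) and with a pseudocount of 1 FPKM (crosses); grey marks the middle 50% of all genes compared and the dashed line their median, on the pseudocount scale. Calb2 lies lowest with etoposide (log2 fold -1.27), and in the control against control panel Gad2 and Lhx6 lie near 0 where the median of all genes is 1.32.

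The largest differences among these genes were between the untreated libraries, the comparison that shows how far 2 cultures differ with no treatment named. Each control serves here and in the comparison with its own treatment, so the values are set side by side and not correlated. Dlx1 in the NMDA control was at 5.95 times its level in the etoposide control (interval 4.82 to 7.42), Calb2 at 4.63 (3.97 to 5.42), Dlx6 at 4.50 (2.94 to 7.15), Dlx2 at 3.74 (2.62 to 5.47) and Dlx5 at 2.95 (1.80 to 5.07). Slc32a1 was at 2.12 (1.86 to 2.41) and Gad1 at 1.47 (1.38 to 1.56), while Lhx6 at 1.08 (0.903 to 1.29) and Gad2 at 0.987 (0.891 to 1.09) have intervals that include 1. The members thus spread on both sides of the ratio of 2.50 that stands at the median of all genes.

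On the log2 scale with a pseudocount of 1 FPKM, at least 2-fold higher in the NMDA control were 4 of the 9 (Dlx1, Calb2, Dlx6 and Dlx2), where 75.1% of the 12987 genes compared were, and 0 at least 2-fold lower, where 0.708% were. Dlx5 and Slc32a1, above 2-fold as plain ratios, fell just short on this scale, and with a pseudocount of 0.1 FPKM the number was 6. Above 0 were 8 of the 9, near the 98.4% of all genes, and below it 1, Gad2, where 1.63% were. Relative to the median of all genes, 2 of the 9 were at least 2-fold lower, Gad2 at -1.34 and Lhx6 at -1.23, where 2.96% of genes were, and 0 at least 2-fold higher, where 8.02% were. Of the genes compared, 1.59% had a lower log2 fold than Gad2 and 1.79% a lower one than Lhx6. Gad1 lay at -0.79, Slc32a1 and Dlx5 both at -0.33, Dlx2 at -0.05, Dlx6 at 0.04, Calb2 at 0.78 and Dlx1 at 0.79 relative to the median. The median over the 9 was -0.33 on this scale.

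Ratios between genes of the same library do not depend on how that library was scaled, and a set of them was chosen after values were seen. Gad1 divided by Slc17a7, the vesicular glutamate transporter of cortical excitatory neurons, was 1.28 in the etoposide control (interval 1.18 to 1.38), 1.96 with etoposide (1.73 to 2.22), then 0.414 for the NMDA control (0.397 to 0.431) and 0.454 with NMDA (0.435 to 0.474). Gad2 divided by Slc17a7 was 0.321, 0.589, 0.0701 and 0.0741 in the same order, and Slc32a1 divided by Slc17a7 was 0.319, 0.447, 0.15 and 0.174. These ratios turn on the gene divided by. Over all 13 excitatory markers, the ratio was higher with etoposide than in its control for 6 with Gad1, 11 with Gad2 and 5 with Slc32a1, so only Gad2 gave mostly one direction. Both libraries of the etoposide pair stood above both of the NMDA pair for 9 of the 13 with Gad1, 13 with Gad2 and 5 with Slc32a1. Divided by the summed level of the 13, Gad1 was 0.281 in the etoposide control and 0.306 with etoposide, Gad2 0.0706 and 0.0921, and Slc32a1 0.0702 and 0.0699. Slc17a7 itself stood at 25.4, 10.3, 115 and 115 FPKM and is in the authors' deposited table as 2.48-fold lower with etoposide.

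Among the GABAergic genes themselves, Gad1 divided by Gad2 was 3.97 in the etoposide control (interval 3.62 to 4.36), 3.32 with etoposide (2.95 to 3.75), then 5.90 for the NMDA control (5.48 to 6.36) and 6.13 with NMDA (5.68 to 6.61). Dlx1 divided by Gad1 was 0.0632, 0.118, 0.257 and 0.200, and Calb2 divided by Gad1 was 0.293, 0.167, 0.926 and 0.830. Lhx6 divided by Gad1 kept closest to one value, at 0.130, 0.120, 0.0959 and 0.102, with overlapping intervals inside each pair.

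**Figure D4:**
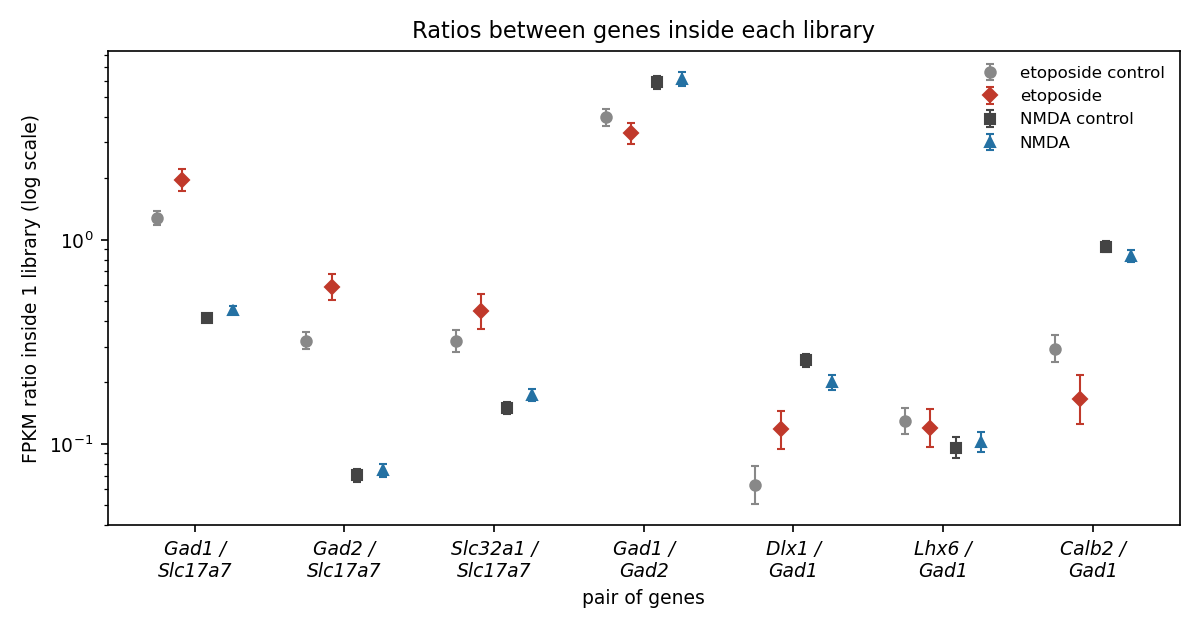
FPKM ratio of pairs of genes inside each of the 4 libraries (log scale), with 95% counting intervals from approximate fragment numbers. Each ratio to Slc17a7, one excitatory marker of 13, is highest with etoposide (1.96 for Gad1), and Lhx6 divided by Gad1 spans only 0.0959 to 0.130 over the 4 libraries.

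Further genes of GABA handling were lower with etoposide on the deposited scale. Of the 8 genes listed for GABA synthesis, transport and breakdown, Gad1, Gad2 and Slc32a1 among them, 7 passed the filter, and all 7 lay below the median of all genes, 3 of them at least 2-fold lower as deposited, where 7.36% of all genes were. Among these were Slc6a11, a GABA uptake transporter of astrocytes (10.2 to 3.34 FPKM), and Abat, GABA transaminase (12.4 to 5.48). Both are in the authors' deposited table. Slc6a13 was listed at 0 in both libraries of the pair. Most other lists also lay mainly below the median of all genes with etoposide, with 12 of 14 pan-neuronal, 10 of 13 excitatory neuron and 6 of 7 astrocyte markers there. With NMDA none of the 7 reached 2-fold, where 0.438% of all genes compared were that much higher and 0.729% that much lower. The list's relative median was 0.05. Between the controls 6 of the 7 lay below the median of all genes, at a relative median of -0.64, and Aldh5a1, which breaks down GABA further, went from 5.83 to 17.3 FPKM.

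Inhibitory synapse genes showed a like picture with etoposide. All 7 of that list were measured and lay below the median of all genes, at a relative median of -0.57. Astrocyte markers had a relative median of -0.55 and pan-neuronal markers -0.30, so a low position was not particular to inhibitory synapse genes. Slc12a5, the chloride exporter of mature neurons, went from 15.8 to 5.74 FPKM and is in the authors' deposited table, and Gphn, the inhibitory scaffold gephyrin, went from 12.9 to 5.77 FPKM. Interneuron receptors and channels had a relative median of -0.45, with 6 of the 7 compared below the median of all genes. Of the 7 compared, 1 was at least 2-fold lower as deposited (Grik3, a kainate receptor subunit, 3.05 to 1.01 FPKM), where 7.36% of all genes were. With NMDA no gene of either list reached 2-fold, where 0.438% of all genes compared were that much higher and 0.729% that much lower. Between the controls the relative medians were -0.27 for inhibitory synapse genes and -0.03 for receptors and channels, with Cxcr4, a chemokine receptor of migrating interneurons, at 1.00 and 7.83 FPKM and Elfn1, an adhesion protein of somatostatin interneurons, at 0.990 and 6.89.

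Of 23 GABAergic lineage transcription factors, which include the 5 described above, 12 passed the filter in the etoposide pair. Of these 12, 0 reached 2-fold, where 0.477% of all genes compared were that much higher and 7.36% that much lower. Below 0 were 11 of the 12, where 76.7% of all genes were, and the relative median was -0.08. Nr2f1, a regional patterning factor, stood at 12.8 and 7.97 FPKM. Between the controls 20 were compared, 12 were at least 2-fold higher in the NMDA control, a smaller share than the 75.1% of all genes, and the list was split evenly around the median of all genes, 10 above and 10 below. Sp8, a factor of caudal and dorsal lateral eminence lineages, stood at 0.459 and 8.03 FPKM, Sox6, which acts with Lhx6 in the medial lineage, at 1.31 and 11.7, and Etv1 at 1.39 and 9.67. Maf, a factor of medial eminence interneurons, went the other way, at 2.95 and 2.09 FPKM. Nkx2-1, the progenitor factor of the medial eminence, was at most 0.126 FPKM and Lhx8, of the same region, at most 0.0961.

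Interneuron class markers went in opposite directions with etoposide. Of 18 listed, 10 were compared, with 2 at least 2-fold higher (the peptides Cort, 1.31 to 18.1 FPKM, and Sst, 34.6 to 87.9) and 2 at least 2-fold lower (Cck, a peptide also of excitatory neurons, 33.5 to 12.6, and Calb2). Of all genes compared, 0.477% were that much higher and 7.36% that much lower. All 4 are in the authors' deposited table. Reln, a secreted protein of Cajal-Retzius cells and some interneurons, stood at 7.34 and 4.07 FPKM in the etoposide pair and at 9.27 and 12.5 FPKM in the NMDA pair, where the authors' deposited table holds it. Pvalb and Vip, markers of late-maturing classes, were at most 1.46 and 2.69 FPKM. Between the controls the relative median of 14 class markers was 0.00, with 7 above and 7 below the median of all genes.

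Markers of other cells moved with these comparisons, and their part in the results was not tested. The summed level of 8 astrocyte markers was 103 FPKM in the etoposide control, 54.3 with etoposide, then 945 for the NMDA control and 912 with NMDA, and that of 10 oligodendrocyte lineage markers 22.4, 6.39, 218 and 211. No astrocyte marker was at 0, whereas the myelin gene Mag was listed at 0 in the etoposide control and the lineage factor Sox10 with etoposide. Between the controls all 8 astrocyte markers lay above the median of all genes, at a relative median of 1.73, as did 8 of 10 oligodendrocyte lineage markers (1.13) and 8 of 9 dividing progenitor markers (0.90). The summed level of the 10 progenitor markers was 89.8, 31.3, 428 and 376 FPKM. Excitatory neuron markers had relative medians of -0.14 between the controls and -0.23 with etoposide, and pan-neuronal markers -0.08 and -0.30. Striatal projection neurons, which are also GABAergic and could come with the dissected tissue, were represented by 12 measured markers, of which Isl1, Six3 and Ebf1 were at most 0.180 FPKM in every library, while Meis2 stood at 5.45, 1.94, 25.9 and 23.5 FPKM. Summed microglial markers were at most 5.32 FPKM, and Cldn5, which defines brain endothelium, was at 0.0584 FPKM in the NMDA control and listed at 0 in the other 3 libraries. The 8 vascular and meningeal markers as a list were not near 0, at a summed level of 7.05, 2.31, 40.9 and 35.4 FPKM. Acta2, an actin of smooth muscle and pericytes, stood at 4.61, 0.0944, 25.3 and 19.6 FPKM, and the authors' deposited table holds it as lower with etoposide. All 4 of these markers compared between the controls were at least 2-fold higher in the NMDA control, where 75.1% of all genes compared were. Relative to the median of all genes, 0 of the 4 were at least 2-fold higher, where 8.02% of genes were.

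**Figure D5:**
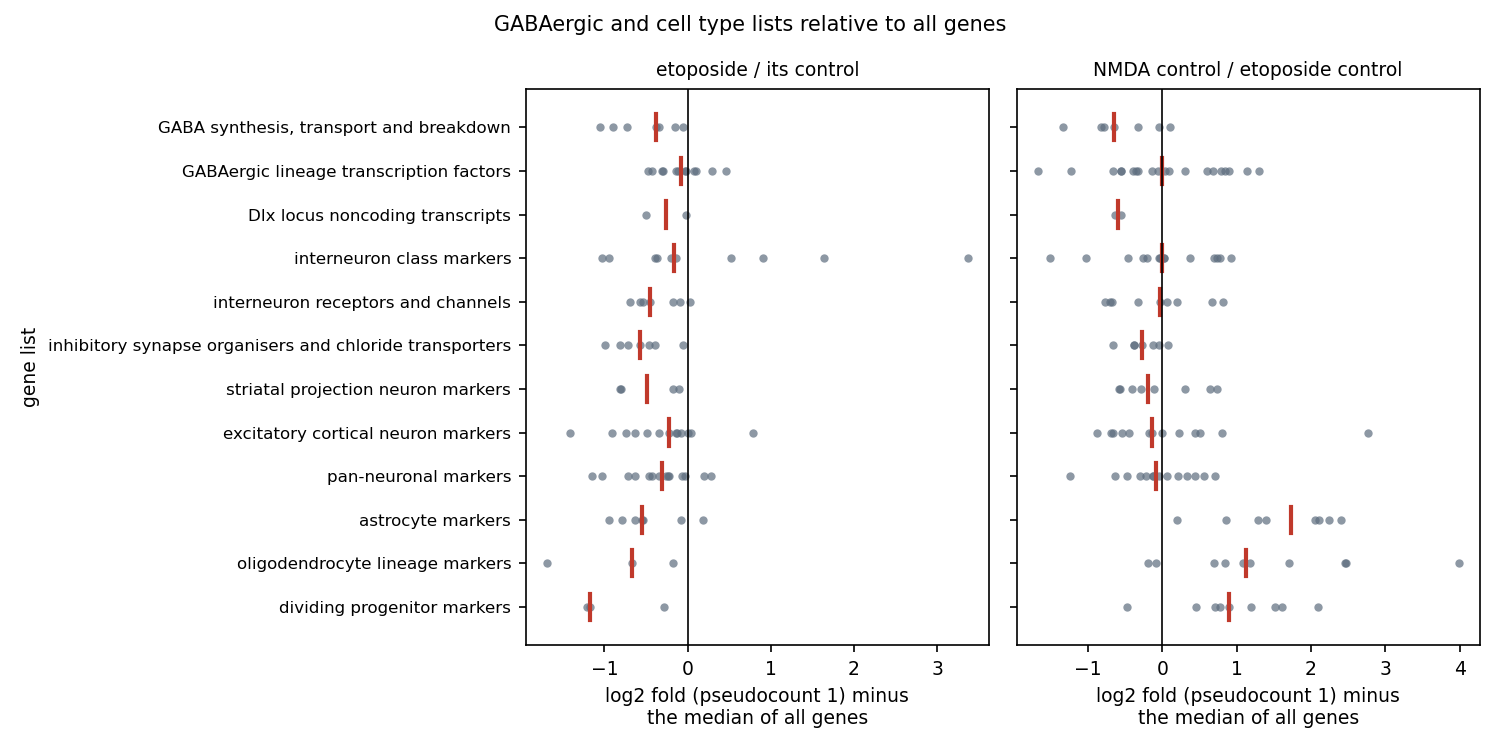
Log2 fold (pseudocount of 1 FPKM) minus the median of all genes for each gene that passed the filter (points) in 12 lists, with the list median as a red bar, for etoposide against its control and for the NMDA control against the etoposide control. The list median of GABA handling genes lies below that of all genes in both panels (-0.38 and -0.64, with 7 of 7 and 6 of 7 genes below), while that of astrocyte markers lies below it in the first (-0.55, 6 of 7 genes) and above it in the second (1.73, 8 of 8).

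By the distance over the 4 libraries between centred profiles of median-scaled log2(FPKM + 1), the genes most like the mean of Gad1, Gad2 and Slc32a1 among 3874 genes at FPKM of at least 5 throughout were Gria4, an AMPA receptor subunit (15.6, 9.81, 22.8 and 25.1 FPKM), Nucks1, Synj1, a synaptic phosphatase, 2700078E11Rik and Zfp706, at distances of 0.0210 to 0.0719. Of the genes that make up that mean, Gad1 lay close to it at 0.0385, but Gad2 at 0.621 and Slc32a1 at 0.631 did not. Likeness to the mean is thus not likeness to each of its genes. Among the members outside that mean, Lhx6 was nearest at 0.187, and Calb2 farthest at 1.97. Lhx6 was nearer to the mean than Gad2 and Slc32a1 were, and the pan-neuronal marker Snap25 was nearer still at 0.0906. The likeness rests on 4 libraries, of which the 2 pairs differ most, and is a description only.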

How the data were processed

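RNA-seq of 4 libraries was used, 1 per group, grouped by sample title. FPKM values are the authors' and were used as deposited. Per the submitters' processing notes the tools were HOMER, Picard, BWA, Cuffdiff, Cufflinks 2.0.0, TopHat and Bowtie, with build mm9, with no role or order, and per the labels' protocols a total RNA kit and paired-end reads were used. The members and lists were chosen with earlier results of these data known.

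Log2 fold was log2((a + 1)/(b + 1)) over genes at FPKM of at least 1 in either library, with a size rule of 2-fold. It understates the change of low genes. Plain ratios carry exact conditional intervals from fragment numbers, which were read off the steps between low values of single-exon genes of at least 800 bases and the GENCODE transcript length inside the tables' locus, and are approximate. Starts in the loci count from 0, so 1 was added. Of 153 listed symbols 147 were in the tables, and the others were not analysed here. Named list genes are up to 4 per list and comparison at 2-fold or more, by size. Others named (Tubb3, Snap25, Nr2f1, Maf, Nkx2-1, Lhx8, Reln, Pvalb, Vip, Isl1, Six3, Ebf1, Cldn5, Slc6a13) were chosen after their values were seen. A few genes under that rule are not reported here. Folds were tested on simulated data. Python 3.11.15, pandas 2.3.3 and scipy 1.17.1 were used. The alternatives were another pseudocount, no filter or a higher one, median scaling (9533 genes at FPKM of at least 1 in all libraries), scaling to pan-neuronal markers and the other control.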

Additional observations from a re-analysis of the deposited data

How the results depend on the processing

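No paired analysis was possible because each group has 1 library and the titles give no shared replicate numbers, and no replicate could be left out. With a pseudocount of 0.1 FPKM, no filter or a filter at 5 FPKM, no member changed sign, but the relative median between the controls was 0.19 with no filter (median scaling gave -0.0448), against -0.33, and with the higher filter 5 members were compared there and 2 were at least 2-fold higher. The number at least 2-fold lower with etoposide was 1 as deposited and 0 with median scaling or neuronal scaling. Against the other control with median scaling 1 member, Gad2, was at least 2-fold higher with etoposide and 1, Calb2, at least 2-fold lower. With NMDA 2 members, Gad2 and Lhx6, were at least 2-fold lower in that setting. Between the controls 0 were at least 2-fold higher with median or neuronal scaling, and 3 (Gad1, Gad2 and Lhx6) or 2 (Gad2 and Lhx6) at least 2-fold lower. The shares of all genes under these settings were not counted, so whether such numbers are unusual cannot be told. By construction median scaling removes the difference in median level between libraries. Neuronal scaling removes the median log2 fold of the pan-neuronal markers, which was not that of all genes. With etoposide these were -0.63 and -0.32, and between the controls 1.24 and 1.32. The sign changed for 5 of 26 member values with median scaling, 9 of 26 with neuronal scaling and 11 of 17 with the other control. Depth limits Dlx2, Dlx5 and Dlx6 in the etoposide pair, where about 12 to 37 fragments stood behind each.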

Other observations

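The noncoding transcripts beside the Dlx pairs did not keep a fixed ratio to their neighbours, a set of ratios looked at after values were seen. Dlx6os1 stood at 5.43 and 2.63 FPKM in the etoposide pair (control first) and at 9.33 and 10.9 in the NMDA pair. Divided by Dlx6 it was 6.63 (interval 4.41 to 10.4), 2.65 (1.73 to 4.21), 2.53 (2.13 to 3.01) and 2.10 (1.80 to 2.46). Dlx1as, whose exons overlap Dlx1, stood at 7.22, 5.47, 13 and 12.9 FPKM, and divided by Dlx1 it was 3.52 (2.53 to 4.88), 2.32 (1.57 to 3.37), 1.06 (0.895 to 1.26) and 1.23 (1.02 to 1.47). The etoposide control thus had the highest ratio of noncoding to coding transcript at both loci, although its Dlx1as interval overlaps that of the etoposide library.

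Sst, the peptide of interneurons whose lineage uses Lhx6, parted from Lhx6 between libraries. Sst divided by Lhx6 was 8.19 without etoposide (interval 6.83 to 9.85), 36.5 with it (29.5 to 45.6), 32.2 in the NMDA control (28.6 to 36.4) and 26.4 with NMDA (23.5 to 29.9). The etoposide library was far from its own control in this ratio and its interval overlapped that of the NMDA control.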
